A study of Mus musculus with 45 samples.

Results

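The ERVL-MaLR families are one branch of the long terminal repeat (LTR) retrotransposons of the mouse genome, and they were taken as the rows of the repeat tables whose family field reads ERVL-MaLR. They made up 108 of the 1146 repeat families counted. By the start of the name, 29 belonged to ORR1, 20 to MT and 59 to MLT. A row ending in "-int" holds the internal part of an element, and the others hold the LTRs that flank it, so that the 108 rows were 52 LTR and 56 internal rows. Each row sums the reads over all genomic copies of that family, so a value says nothing about a single copy, and reads from copies that lie inside the transcripts of genes are part of it.

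MaLR elements (mammalian apparent LTR retrotransposons) are non-autonomous relatives of the ERVL retroviruses: they have LTRs, which can act as promoters, but do not encode the enzymes that copy them. MLT elements are old and shared among mammals, while ORR1 and MT belong to rodents, and the A groups (ORR1A, MTA) are among their younger members. In mice, MT LTRs are known as promoters of the growing oocyte and ORR1 and MT transcripts are abundant in the early embryo, around the time when MERVL, an ERVL element with its LTR MT2_Mm, is expressed in the 2-cell embryo. EHMT1 and EHMT2 (GLP and G9a) place the repressive mark H3K9me2, and the study examined what EHMT2 does in mouse embryonic stem cells (mESCs), by degrading EHMT2 or by inhibiting both enzymes.

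The RNA-seq series held 45 libraries in 15 groups of 3. The time course comprised mESCs in which EHMT2 carries a dTAG degron (labelled BL6/129), in 3 clones (E2-17, E2-20 and E2-K71), given DMSO or dTAG for 24 h or 7 d, and the washout comprised the same 3 clones after 15 d of DMSO, 15 d of dTAG, or 7 d of dTAG followed by 8 d in DMSO without it (Recovery). The sorting experiment used EHMT2-dTAG cells with a GFP reporter driven by MERVL, kept for 72 h in DMSO or dTAG and then sorted into GFP-negative cells, called mESC here, and GFP-positive 2-cell-like cells, called 2CLC. The Dppa4 experiment compared WT J1 mESCs with a line depleted of DPPA4 by CRISPR/Cas9 (KO), each treated for 48 h with DMSO or with UNC0638, which inhibits both enzymes. DPPA4 is a chromatin protein upstream of the 2-cell-like programme. All cells were grown on fibroblast feeders. dTAG removes the protein, so the Ehmt2 mRNA does not check the degradation. Per the labels the 3 libraries of each WT and KO group came from independent clones, but no label says that a replicate number marks the same clone in both treatments. Clones of 1 line are not separate animals, so the p-values below measure the spread between clones.

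The values were normalised read counts, that is, counts divided by a size factor for each library. For the time course, the washout and the sorted cells the tables held the authors' mean of each group, so these 3 experiments gave values without an error and without a test. The Dppa4 tables held all 12 libraries, with 8399885 to 12710949 reads in genes and 313737 to 807204 reads in repeats, of which 24865 to 57942 fell in ERVL-MaLR families. In that experiment 79 of the 108 families had a mean of at least 10 normalised counts and were fitted, namely 28 of 29 ORR1, all 20 MT and 31 of 59 MLT families. The other 29 were too low to fit, and 6 of them had no read in any library.

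Some libraries stood apart. In the KO given UNC0638, library 3 had the lowest share of reads in repeats of all 12, 2.41% of reads, against 4.18% and 5.05% in the other 2 of its group. Library 3 of the KO with DMSO had 5.24%, against 3.57% and 2.91% in its group. Library 2 of the WT with UNC0638 had 4.20%, against 5.48% and 5.99%. In the WT, 6 markers of 2-cell-like cells (Zscan4c, Zscan4d, Zfp352, Duxf3, Usp17la and Tcstv3) summed to 52.4, 212 and 932 normalised counts with DMSO and to 400, 519 and 3567 with UNC0638, with library 3 the highest of each. All 6 were at 0 in 5 of the 6 KO libraries, and the sixth had a sum of 3.49. Dppa4 itself was at 0 in all 6 KO libraries and between 700 and 920 in the WT. Pluripotency markers (Pou5f1, Sox2, Nanog, Zfp42, Esrrb and Klf4) were above 0 in every library and group. The 6 feeder markers (Col1a1, Col1a2, Col3a1, Thy1, Postn and Lum) summed to 1020 to 2603 over the 12 libraries. Only Lum was at 0, in every library except library 3 of the WT with DMSO.

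In the time course, ERVL-MaLR families as a whole were not higher after EHMT2 loss, and a small ORR1A group was. After 24 h of dTAG, 10 of 79 families had a higher mean than with DMSO (12.7%, against 23.3% of all repeat families), the median log2 ratio was -0.28 against -0.25 for all 724 repeat families with a mean of at least 10, and none passed 2-fold in either direction, with 0.829% of all families past 2-fold higher and 1.1% lower. After 7 d, 19 of 79 had a higher mean (24.1%, against 35.5% of all families) and the median was -0.15 against -0.12. One family was past 2-fold higher (1.27%, against 3.04% of all families), ORR1A0-int, and one past 2-fold lower (1.27%, against 1.93%), MLT1N2.

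ORR1A0-int, the internal part of a young ORR1 element, had authors' means of 2420 with DMSO and 2594 with dTAG at 24 h, and of 2052 with DMSO and 4133 with dTAG at 7 d. The dTAG group was thus 2.01-fold higher at 7 d, a log2 ratio of 1.01, against 0.10 at 24 h, and ranked 22 of 724 repeat families. Its LTR, ORR1A0, followed with 483 and 867 at 7 d (log2 ratio 0.84) but -0.19 at 24 h. ORR1A1-int, of the next ORR1A family, had 633 and 1139 at 7 d (0.85), and 0.06 at 24 h. These were the 3 highest of all 79 families at 7 d. With DMSO alone the 7 d means of all 3 lay below the 24 h means, with log2 ratios of -0.24, -0.30 and -0.31, against a median of -0.11 for all repeat families.

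The response at 7 d was uneven within ORR1. Over the 10 ORR1A rows the median log2 ratio was 0.21 and 6 were above 0, whereas over the 18 rows of ORR1B to ORR1G it was -0.13 and 2 were above 0. Outside ORR1A0 and ORR1A1 the ORR1A ratios were small: ORR1A2-int had 0.19, ORR1A3-int 0.24 and ORR1A4-int -0.16, and ORR1A2, the ORR1 LTR with the highest mean count in the Dppa4 experiment, had -0.16. For comparison, MERVL-int, the reference element of the 2-cell-like state, had log2 ratios of 2.44 at 24 h and 3.98 at 7 d. The 2-cell-like markers summed to 114 and 1374 at 24 h and to 179 and 4143 at 7 d, DMSO first. The feeder markers summed to 1601 and 2040 at 24 h and to 1358 and 2083 at 7 d. The part of both marker sets in the ORR1A ratios was not tested, and in bulk cells a change in the number of cells of a type cannot be told apart from a change in RNA per cell.

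The MT and MLT families moved less in the time course. MTA_Mm-int, the internal row of a young MT element, had means of 4601 and 5838 at 24 h (log2 ratio 0.34) and of 5820 and 7698 at 7 d (0.40). Its LTR MTA_Mm stayed near its control, with log2 ratios of -0.06 and 0.05. MT-int, the internal row that carries no letter, had 0.04 at 24 h and 0.66 at 7 d, with means of 130 and 205 at 7 d. MTB_Mm-int was the highest of all members at 24 h, with a log2 ratio of 0.77, but from means of only 25.9 and 44.8, and the next were MLT1K (0.49) and MLT1A0-int (0.47), which were also the highest 2 of the DMSO 7 d against DMSO 24 h comparison (0.37 and 0.44). MLT1A (-0.75), MLT1J (-0.73) and MTEb-int (-0.72) were the lowest at 24 h, and MLT1N2 (-1.05), MLT1H1 (-0.89) and MLT1J (-0.78) at 7 d. These 5 families were low, with group means of at most 125 normalised counts.

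**Figure D1:**
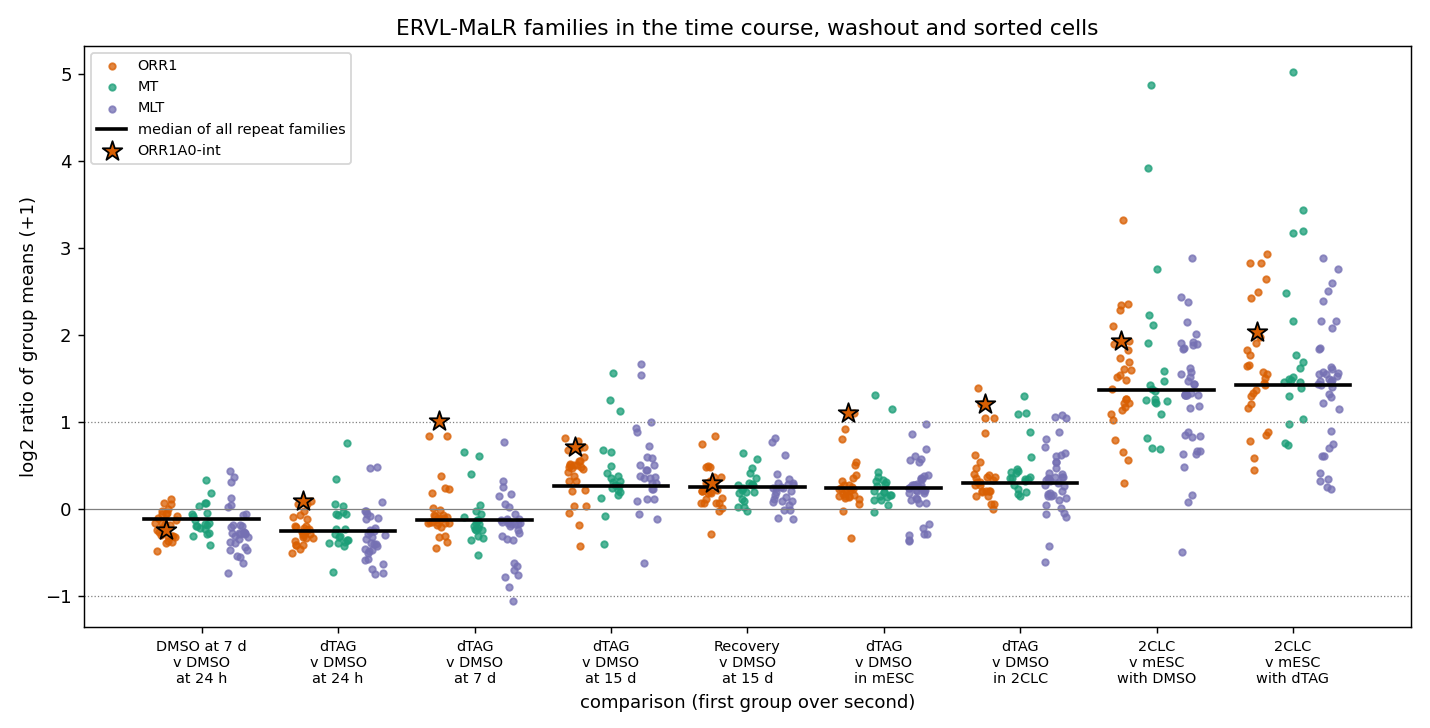
Log2 ratio of the authors' group means (first group over second, 1 added to each) for every ERVL-MaLR family with a mean of at least 10, by comparison. Points are families coloured by subgroup, the black bars are the median of all repeat families and the star is ORR1A0-int. The star lies near 0 and above the bar at 24 h (0.10), and further above the bar at 7 d (1.01). In 2CLC against mESC nearly all families lie above 0 around a bar at 1.38.

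After 15 d of dTAG most members had a higher mean than with DMSO, as did most repeats. The mean was higher in 65 of 73 families (89%, against 82.3% of all 640 repeat families), with a median log2 ratio of 0.39 against 0.27. Past 2-fold higher were 5 of 73 (6.85%, against 9.84% of all families) and none was past 2-fold lower (0.312% of all). The 5 were MLT1L, MT-int, MLT1H2, MTB_Mm-int and MTE2b-int, and thus 3 were internal rows of MT elements. MT-int went from 91.3 with DMSO to 274 with dTAG, a log2 ratio of 1.57. MLT1L went from 34.1 to 111 (1.67), and MLT1H2 from 9.89 to 30.7 (1.54), so that MLT1H2 met the limit of 10 only through the dTAG and Recovery groups. At the other end were MLT1O (-0.62), ORR1C1-int (-0.42) and MTE2a-int (-0.40).

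ORR1 did not reach 2-fold at 15 d, but its median of 0.48 was above that of MT (0.32) and MLT (0.37). Over the 10 ORR1A rows all ratios were above 0, with a median of 0.55, and over 17 rows of ORR1B to ORR1G the median was 0.43. ORR1A0-int had 1238 with DMSO and 2040 with dTAG (0.72), ORR1A0 720 and 1157 (0.68), and ORR1A1-int 451 and 778 (0.78). MTA_Mm-int had 2972 and 4698 (0.66) and MTA_Mm 1669 and 2181 (0.39). The sets of feeder and 2-cell-like markers were higher in the same group: feeder markers summed to 2442 with DMSO and 3285 with dTAG, and 2-cell-like markers to 321 and 7741. Their part in these ratios was not tested.

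After washout the ORR1A rows lay below their dTAG means, except ORR1A4-int, which had 773 with dTAG, 1055 in Recovery and 749.5 with DMSO and so lay further from DMSO after washout. With Recovery against dTAG at 15 d, the median log2 ratio was -0.36 over the 10 ORR1A rows, -0.12 over all 73 members and -0.05 over all repeat families. The lowest were MT-int, at 99.5 against 274 (-1.45), MLT1H2 (-1.13) and ORR1A0, at 590 against 1157 (-0.97). The first 2 were the only members past 2-fold lower (2.74%, against 4.38% of all families), and none was past 2-fold higher (0.312%). ORR1A0-int had 1522 in Recovery, between 1238 with DMSO and 2040 with dTAG. ORR1E-int (0.81), ORR1D-int (0.53) and MLT1O (0.51) were the highest. The feeder markers summed to 957 in Recovery against 3285 with dTAG, and the 2-cell-like markers to 523 against 7741, and their part in these ratios was not tested.

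Against DMSO, Recovery was higher in 66 of 73 families (90.4%, against 81.2% of all), with a median of 0.22 against 0.25, and none passed 2-fold (0.938% of all higher and 0% lower). ORR1A0 was the lowest of all members in that comparison, with a log2 ratio of -0.29, followed by MLT1O (-0.11) and MLT1I (-0.10). ORR1E-int (0.85), MLT1J2 (0.82) and MLT1L (0.78) were the highest, at 82 normalised counts or fewer. MERVL-int was at 5617, 147295 and 11016 with DMSO, dTAG and Recovery. The comparisons share their DMSO, dTAG and Recovery groups, so their ratios are not independent.

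**Figure D2:**
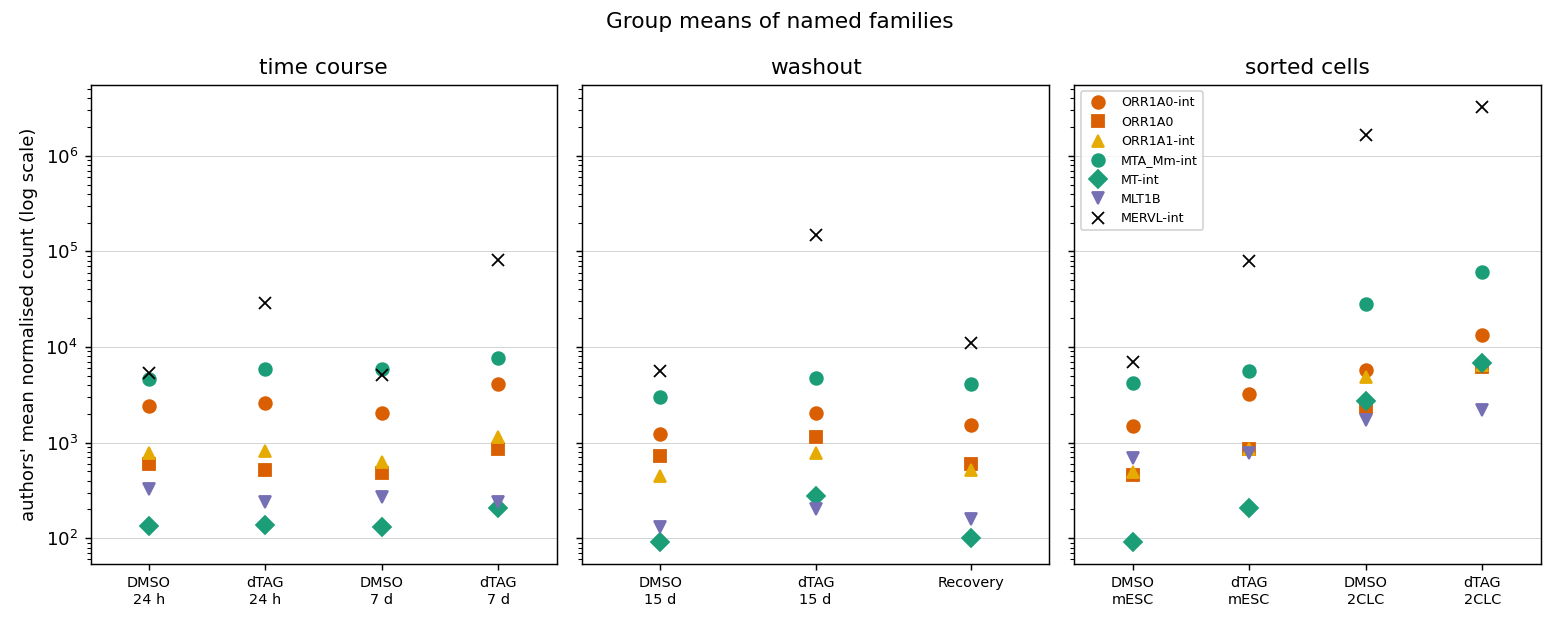
Authors' mean normalised counts of 6 ERVL-MaLR families and of MERVL-int in the 11 groups of the time course, washout and sorted cells, on a log scale. Each marker is 1 group mean without an error. ORR1A0-int goes from 2052 with DMSO to 4133 with dTAG at 7 d, and MT-int from 92.4 in DMSO mESC to 6771 in dTAG 2CLC.

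The sort by MERVL-driven GFP gave the largest differences. In 2CLC against mESC with DMSO, 86 of 87 families had a higher mean (98.9%, against 97% of all 911 repeat families), and 68 were past 2-fold higher (78.2%, against 67.8% of all) with none lower (0.549% of all). The median log2 ratio was 1.38, the same as for all repeat families to 2 decimals, whereas the median over 17331 genes was -0.03. The members as a whole thus differed as the whole repeat table did. Relative to the median of all repeat families, 7 members were past 2-fold higher and 4 past 2-fold lower. The share of all repeat families past that centred limit was not counted, so these counts do not set the members apart. The sort selected on MERVL, so MERVL-int (6891 in mESC and 1643470 in 2CLC) and MT2_Mm (842 and 182380) are not a result. The libraries of sorted cells were low-input libraries. The 2CLC and mESC fractions differed in Ehmt2 (65 and 116 normalised counts with DMSO) and in the summed feeder markers (913 and 337), whose part in the ratios was not tested.

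The 7 members past 2-fold above that median were MT-int, MTE2b-int, ORR1A1-int, MLT1D-int, MTA_Mm-int, MLT1H-int and MLT1L, and the 4 past 2-fold below it were MLT1B-int, MLT1G1, MLT1F-int and ORR1A4-int, some of them named after their values were seen. MT-int was the highest, with 92.4 in mESC and 2741 in 2CLC with DMSO, a 29.4-fold difference that ranked 11 of 911 repeat families. MTE2b-int had 52.7 and 813 (15.2-fold) and ORR1A1-int 488 and 4910 (10-fold). MTA_Mm-int, the most abundant of these rows, had 4158 and 28261 (log2 ratio 2.76), with MTA_Mm at 2688 and 10147 (1.92). ORR1A0-int had 1493 and 5730 (1.94) and ORR1A0 456 and 2342 (2.36). Over the 10 ORR1A rows the median was 1.92 and 9 lay above the median of all repeat families, while over the 18 rows of ORR1B to ORR1G it was 1.25 and 7 did. ORR1A4-int was the ORR1A row that did not, with 1054 and 1297 (0.30).

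The old MLT families had a median of 1.33 over 39 rows and departed from the shift of all repeats on both sides. On the high side were MLT1D-int, at 10.2 in mESC and 82.1 in 2CLC (log2 ratio 2.89), MLT1H-int, at 11.0 and 64.1 (2.44), and MLT1L, at 119 and 628 (2.38). On the low side were MLT1G1, at 565 and 599 (0.08), MLT1F-int (0.17) and MLT1B-int (-0.49, from 19.4 to 13.5 normalised counts). All ERVL-MaLR families together summed to 54240 normalised counts in mESC and 169567 in 2CLC with DMSO. That was 8.06% and 5.06% of all repeat counts, which include those of MERVL-int.

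The dTAG fractions share no library with the DMSO fractions. With dTAG, all 87 families had a higher mean in 2CLC (against 95.4% of all), 69 past 2-fold (79.3%, against 66.5% of all) and none past 2-fold lower (0.439% of all), with a median of 1.5 against 1.44. MT-int led with 207 and 6771 (32.5-fold), followed by MTA_Mm-int with 5596 and 60721 (10.8-fold) and MTE2b-int with 133 and 1233 (9.22-fold). ORR1A0-int had 3224 and 13279 and ORR1A0 865 and 6167. The lowest 3 were MLT1E (0.23), MLT1G1 (0.26) and MLT1F2-int (0.32).

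**Figure D3:**
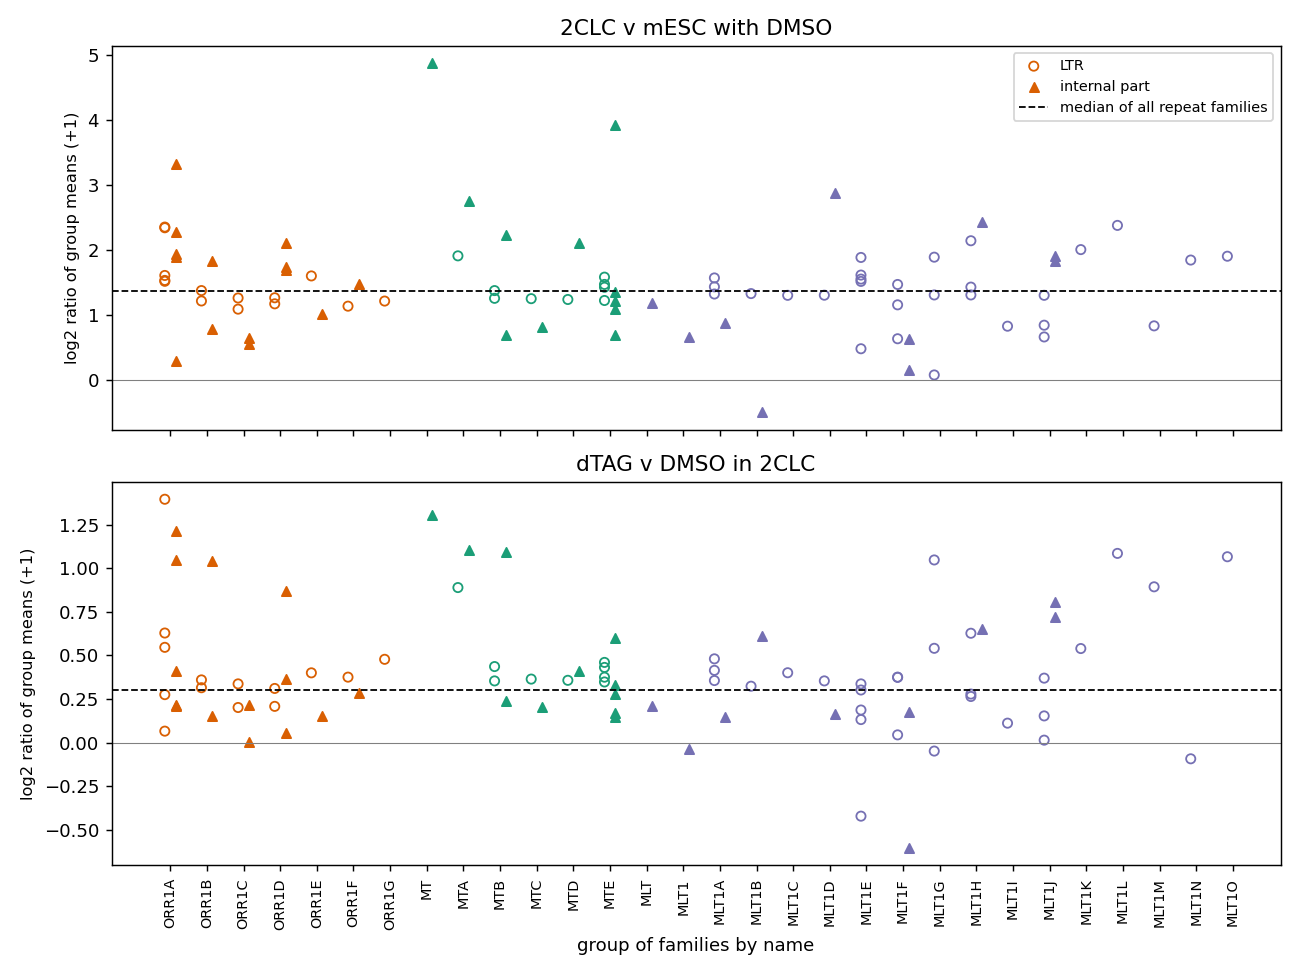
Log2 ratio of the authors' group means by group of families, with LTR rows as open circles and internal rows as triangles, for 2CLC over mESC with DMSO (top) and for dTAG over DMSO in 2CLC (bottom). The dashed lines are the medians of all repeat families, 1.38 and 0.30. The ORR1A0, ORR1A1, ORR1A2 and MTA rows and MT-int lie above both lines, and the ORR1A3 and ORR1A4 rows lie below the line of the bottom panel. Rows of ORR1B to ORR1G lie on both sides of that line, with ORR1B2-int (1.04) and ORR1D2-int (0.87) above it. MLT1G1 lies at 0.08 in the top panel.

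Loss of EHMT2 for 72 h was read in each fraction separately. In the GFP-negative mESC, 77 of 87 families had a higher mean with dTAG (88.5%, against 82.5% of all), with a median of 0.24, as for all repeat families. Past 2-fold were 3 of 87 (3.45%, against 7.35% of all) and none was lower (0.11% of all): MTE2b-int, from 52.7 to 133 (1.32), MT-int, from 92.4 to 207 (1.16), and ORR1A0-int, from 1493 to 3224 (1.11). ORR1A0 had 456 and 865 (0.92), ORR1A1-int 488 and 854 (0.81), MTA_Mm-int 4158 and 5596 (0.43) and MTA_Mm 2688 and 3363 (0.32). The lowest were MLT1F-int (-0.36), MLT1M (-0.36) and ORR1C1-int (-0.33). The GFP-negative fraction was not free of 2-cell-like RNA: the markers of that state summed to 456 with DMSO and 5393 with dTAG, and MERVL-int had 6891 and 78865. The feeder markers summed to 337 and 660 in the same groups, and the part of both sets in these ratios was not tested.

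In 2CLC, 82 of 87 families had a higher mean with dTAG (94.3%, against 78.7% of all), with a median of 0.35 against 0.30. Past 2-fold higher were 10 of 87 (11.5%, against 5.93% of all) and none was past 2-fold lower (0.878% of all). ORR1A0 was the highest, from 2342 to 6167 (1.40), which ranked 10 of 911 repeat families. MT-int went from 2741 to 6771 (1.30), ORR1A0-int from 5730 to 13279 (1.21) and MTA_Mm-int from 28261 to 60721 (1.10). The others past 2-fold were MTB_Mm-int (1.09), MLT1L (1.09), MLT1O (1.07), MLT1G3 (1.05), ORR1A2-int (1.05) and ORR1B2-int (1.04). MTA_Mm had 0.89 and ORR1A1-int 0.41. MLT1F2-int (-0.60), MLT1E (-0.42) and MLT1N2 (-0.09) were the lowest. MERVL-int in that comparison had 0.99, and the 2-cell-like markers summed to 82673 with DMSO and 133720 with dTAG. The feeder markers summed to 913 and 1537, and the part of both sets was not tested.

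ORR1A0-int therefore had a higher group mean with dTAG at 7 d, at 15 d, in sorted mESC and in sorted 2CLC, with log2 ratios between 0.72 and 1.21, and a ratio near 0 at 24 h. MTA_Mm-int had ratios between 0.34 and 1.10 in all 5 comparisons. None of these has an error.

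The Dppa4 experiment, with a value for each library, was tested by limma over 689 repeat families. With UNC0638 against DMSO in the WT, no member passed an adjusted p of 0.05 with a 2-fold difference, or at any size, nor did any of the 689 families (0%). At an unadjusted p under 0.05 were 8 of 79 members, all higher (10.1%, against 11.5% of all families), and edgeR and DESeq2 on the recovered reads also called none, with 11 and 10 members at that unadjusted p. The difference was above 0 for 75 of 79 (94.9%, against 89.7% of all), with a median of 0.37 against 0.43. For 24 of 79 members the groups did not overlap, with UNC0638 higher (30.4%, against 28.7% of all families), and for none with UNC0638 lower (0.435% of all). Equalising the median of all repeat families between libraries took the members' median to -0.03.

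In the KO, again no member and none of the 689 families was called (0%), and 5 of 79 members were at an unadjusted p under 0.05 (6.33%, against 4.93% of all families). The difference was above 0 for 53 of 79 (67.1%, against 54.7% of all), with a median of 0.14 against 0.05. For 6 of 79 the groups did not overlap, with UNC0638 higher (7.59%, against 4.93% of all), and for none with UNC0638 lower (1.74% of all). These 6 were ORR1A0-int, ORR1A1-int, ORR1A1, MTB_Mm, MTEa-int and MLT1J2, named after their values were seen. By edgeR no member was called in the KO, with 5 at an unadjusted p under 0.05, and by DESeq2 1 was, ORR1A0-int, again with 5.

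ORR1A0-int had the lowest unadjusted p of all members in the KO. It was singled out with its rise after EHMT1/2 inhibition in these data already known, so its values here are a description and its p-values are no independent evidence. The 3 WT libraries with DMSO had 3074, 2133 and 3206 normalised counts and those with UNC0638 5377, 3012 and 5094, so 2 of the treated libraries lay above all controls and the third within them. In the KO, the DMSO libraries had 2547, 2468 and 3547 and the UNC0638 libraries 5461, 6674 and 6196, all above every control. The mean was 2804 ± 585 and 4494 ± 1291 in the WT and 2854 ± 602 and 6110 ± 611 in the KO (SD, n = 3 each). The log2 difference was 0.66 ± 0.26 (SE) in the WT, with a limma adjusted p of 0.322, and 1.11 ± 0.26 in the KO, with a limma adjusted p of 0.254. It was not called by limma in either line. In the KO the adjusted p was 0.3 by edgeR, 0.0381 by DESeq2 and 0.0435 when genes and repeats were fitted together by limma, and over 22 alternatives it ran from 0.0381 to 0.999. Without library 3 of the treated KO the log2 difference was 1.10, with a limma adjusted p of 0.324.

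The difference between both effects on ORR1A0-int was 0.46 ± 0.37 (SE, KO minus WT), with a limma adjusted p of 0.764. The effect in the KO was thus not shown to be larger than in the WT. Of the 6 markers of 2-cell-like cells, all were at 0 in treated KO libraries 1 and 2. In treated KO library 3, 5 were at 0 and the sum was 3.49.

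ORR1A1-int, named here after its values were seen, had lower counts and a similar difference in the KO. It had 800, 494 and 684 with DMSO and 1028, 645 and 1013 with UNC0638 in the WT, where the groups overlapped. In the KO it had 562, 453 and 643 with DMSO and 985, 1364 and 995 with UNC0638, where they did not. The log2 differences were 0.44 ± 0.26 and 1.01 ± 0.26 (SE), with limma adjusted p of 0.432 and 0.33, and 0.0713 by DESeq2 in the KO. The difference between both effects was 0.57 ± 0.37 (SE), with a limma adjusted p of 0.764.

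The LTR row ORR1A0 varied more between libraries of a group. In the WT it had 733, 891 and 1630 with DMSO and 1013, 807 and 1951 with UNC0638, in each case with library 3 the highest. In the KO it had 502, 649 and 917 with DMSO and 770, 1291 and 2155 with UNC0638, with groups that overlapped. The log2 difference was 0.19 ± 0.38 (SE) in the WT and 0.95 ± 0.38 in the KO, with limma adjusted p of 0.757 and 0.871. Library 3 of the treated KO decided much of the latter value, which was 0.58 without it, and the WT value was -0.17 without library 3 of the treated WT.

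**Figure D4:**
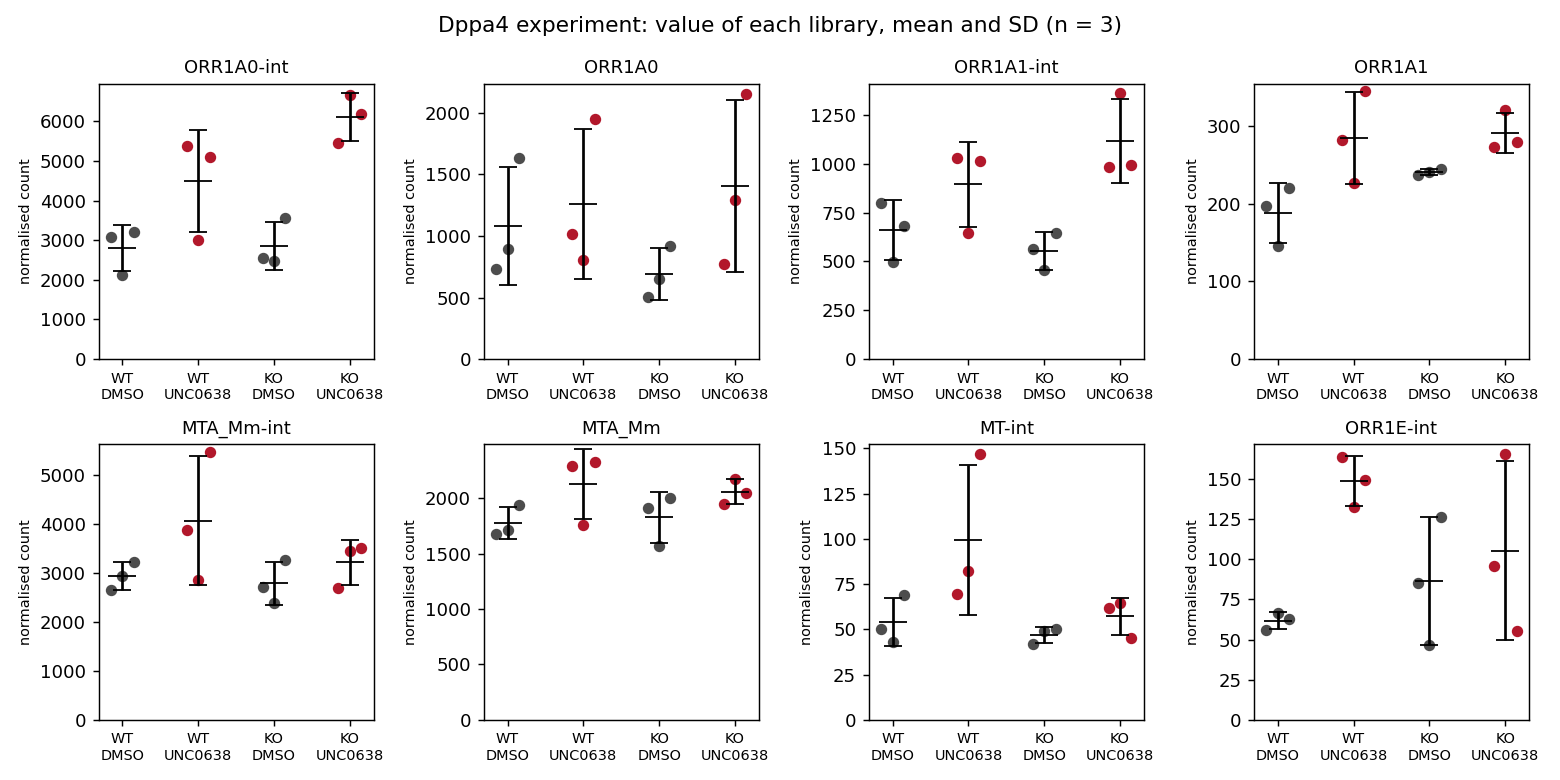
Normalised counts of 8 ERVL-MaLR families in the 12 libraries of the Dppa4 experiment, with the mean and SD of each group of 3. Axes start at 0. For ORR1A0-int the 3 KO libraries with UNC0638 lie between 5461 and 6674 and the 3 with DMSO between 2468 and 3547.

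Of the other ORR1 rows, ORR1E-int had the highest difference in the WT and was named after its values were seen. It had 56, 66 and 63 normalised counts with DMSO and 164, 133 and 149 with UNC0638, so that the groups lay far apart. Its log2 difference was 1.25 ± 0.39 (SE), with a limma adjusted p of 0.305, and the value was 1.18 to 1.33 when single libraries were left out. In the KO it had 85, 47 and 127 with DMSO and 96, 166 and 55 with UNC0638, which overlapped widely. ORR1A2, the most abundant ORR1 LTR, had 966, 1001 and 964 against 1450, 1160 and 1400 in the WT, without overlap, and a log2 difference of 0.45 ± 0.21 (SE) with a limma adjusted p of 0.425. That was close to the median of all repeat families. In the KO it had 0.25 ± 0.21, and its groups overlapped. Over the 10 ORR1A rows the median difference was 0.42 in the WT and 0.26 in the KO, and over ORR1B to ORR1G 0.40 and 0.11.

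No MT row was called in either line. MTA_Mm-int had 2640, 2935 and 3224 with DMSO and 3868, 2863 and 5465 with UNC0638 in the WT, and 2703, 2389 and 3254 against 2689, 3451 and 3502 in the KO, with overlap in both. Its log2 differences were 0.43 ± 0.25 and 0.21 ± 0.25 (SE), with limma adjusted p of 0.427 and 0.986. The WT value was 0.19 without library 3 of the treated WT, the library with the highest 2-cell-like markers. MTA_Mm had 0.25 ± 0.21 and 0.18 ± 0.21, and MTD, the most abundant MT LTR, 0.25 ± 0.25 and 0.11 ± 0.25. MT-int had 50, 43 and 69 with DMSO and 70, 82 and 147 with UNC0638 in the WT, without overlap, and 42, 49 and 50 against 62, 65 and 45 in the KO.

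In MLT the effects scattered around 0 in the KO. The most abundant LTR, MLT1B, had 0.21 ± 0.24 (SE) in the WT and 0.07 ± 0.24 in the KO, with overlap in both. MLT1G1, named after its values were seen, had 279, 255 and 255 with DMSO and 478, 330 and 430 with UNC0638 in the WT, and 150, 154 and 243 against 136, 169 and 57 in the KO. The difference between both effects was -1.32 ± 0.48 (SE), with a limma adjusted p of 0.764, and -0.86 without library 3 of the treated KO. Across the 79 members, 2 differences between the effects in both lines had an unadjusted p under 0.05 (MLT1G1 and ORR1D-int) against 4.79% of all families, and none of the 79 or of the 689 families was called (0%). By edgeR and by DESeq2 none was called either, with 2 members at that unadjusted p by each.

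**Figure D5:**
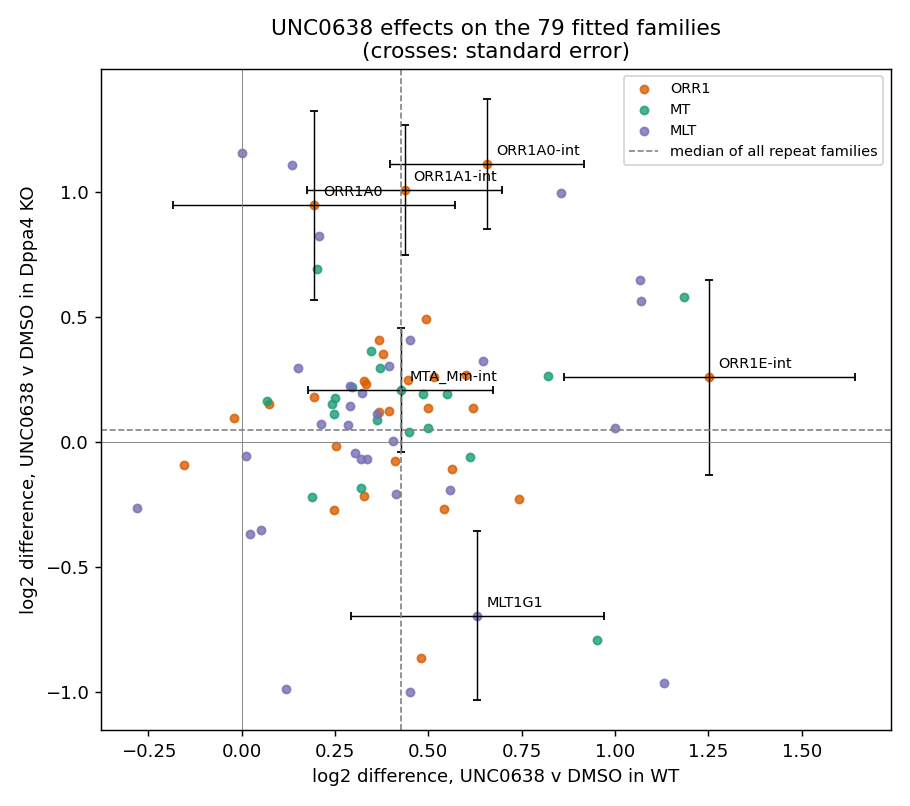
Log2 difference of UNC0638 against DMSO in the WT (x axis) and in the Dppa4 KO (y axis) for the 79 fitted ERVL-MaLR families, coloured by subgroup. Crosses on 6 named families are standard errors and dashed lines are the medians of all 689 repeat families, 0.43 in the WT and 0.05 in the KO. ORR1A0-int, ORR1A1-int and ORR1A0 lie near 1 on the y axis.

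Between KO and WT in DMSO, none of 79 members was called by limma, against 5 of 689 families (0.726%), and 2 of 79 were at an unadjusted p under 0.05 (6.53% of all families were), MLT1F2-int and ORR1F-int. The median log2 difference was 0.07 against 0.04. The feeder markers summed to 1835, 2603 and 1991 in the WT and to 1020, 1283 and 1377 in the KO, without overlap, and their part in these differences was not tested. For 9 of 79 the KO libraries lay above all WT libraries (11.4%, against 6.1% of all) and for 2 below (2.53%, against 5.22% of all). MLT1F2-int, the MLT internal row with the highest mean count, had 10, 33 and 21 in the WT and 119, 87 and 58 in the KO. Its log2 difference was 2.06 ± 0.52 (SE), with an adjusted p of 0.0834 by limma, 0.0906 by edgeR and 0.0127 by DESeq2. It was nearly without reads in the time course and washout, with group means of at most 1.47. In the sorted cells it was not: it had 60.7 in DMSO 2CLC, 39.6 in dTAG 2CLC and 31.5 in dTAG mESC. For KO against WT in DMSO, edgeR called no member and had 2 at an unadjusted p under 0.05, and DESeq2 called MLT1F2-int, with 2.

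The summed counts of the subgroups are given as a description. ORR1 summed to 15729, 14004 and 16130 normalised counts with DMSO and to 22668, 16029 and 22703 with UNC0638 in the WT, and to 15598, 14167 and 17958 against 21410, 24088 and 19961 in the KO. In the KO all treated sums lay above all controls, and ORR1A0-int alone was 5461 to 6674 of these treated sums. The ORR1 share of all repeat counts in the KO was 4.09%, 4.37% and 3.16% with DMSO and 5.09%, 4.62% and 7.29% with UNC0638. MT summed to 13499, 13467 and 13491 with DMSO against 18554, 13854 and 19298 with UNC0638 in the WT, where all treated sums lay above all controls. As a share of all repeat counts, however, MT was 3.60%, 3.34% and 3.10% with DMSO and 3.37%, 3.26% and 2.99% with UNC0638 there, which overlapped. In the KO it summed to 14078, 12072 and 15286 against 15975, 18081 and 12462, which overlapped. MLT summed to 3549, 3113 and 3246 against 4923, 3491 and 4261 in the WT and to 3480, 3242 and 3465 against 4016, 4234 and 2666 in the KO, with overlap in both. Library 3 of the treated KO, which had the fewest repeat counts, was the lowest treated KO library in all 3 sums. By share of all repeat counts it was instead the highest treated KO library in all 3. It had 7.29% for ORR1, 4.55% for MT (3.80% and 3.46% in libraries 1 and 2) and 0.973% for MLT (0.954% and 0.811%).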

How the data were processed

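RNA-seq libraries were trimmed with Trim Galore 0.6.7, aligned to mm10 with STAR 2.7.10 and counted per gene and per repeat family with TEcounts 2.2.3 by the authors, with 1 random place kept for a multi-mapping read. The strand setting is not given in the sources used here. The deposited values are a signal, counts divided by DESeq2 size factors, per library in the Dppa4 tables and as the authors' group means in the others. Dividing by the smallest step recovered whole reads for 100% of Dppa4 values above 0, within 0.001 of a read. Deposited fold changes and p-values, the authors' own comparisons, were not used. Families with a mean of at least 10 were fitted with limma 3.58.1 in R 4.3.3 on log2(value + 1), over all 12 libraries and 689 families with Benjamini-Hochberg adjustment. A call needed an adjusted p under 0.05 and a log2 difference of at least 1. Folds are on that scale and understate low families. edgeR 4.0.16 and DESeq2 1.42.0 on the recovered reads were alternatives. Group means were compared as log2 ratios with 1 added, past 2-fold, without a test. The steps were tested on simulated data. Named families were the 3 highest and 3 lowest of each group-mean comparison, the calls, the ORR1A0 and MTA_Mm rows, and the most abundant LTR and internal row of each subgroup. The other ORR1A rows and members named for an unadjusted p or for groups that did not overlap were named after their values were seen. The members and lists were chosen with earlier results of these data known. The replicate numbers of the Dppa4 libraries were not used to pair them, as no label says that they mark the same clone.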

Additional observations from a re-analysis of the deposited data

How the results depend on the processing

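Counts sum over all copies, multi-mapping reads were placed at random, and group means carry no error. In the Dppa4 experiment, 1 member was called in the KO and 1 in KO against WT by DESeq2 and by the joint limma fit of genes and repeats, against 0 in the limma fit of repeats, and leaving out single libraries gave 0 to 1, the latter without replicate 2 of the treated KO. Without replicate 3 of the treated KO, 23 members in the WT and 20 in the KO had an unadjusted p under 0.05, and none was called by limma. The shares of all repeat families at that p were not counted for the alternative fits, so these numbers are not a result about the members. With the replicate number as a block, 0 members were called in all 4 contrasts, and 11, 5, 3 and 2 had an unadjusted p under 0.05. Same-number correlations between treatments were 0.131, -0.0086 and 0.280 in the WT and 0.094, -0.048 and -0.123 in the KO. They do not decide whether the numbers pair the libraries. In the WT, TMM over repeats reversed ORR1A0 (-0.19), MTA_Mm (-0.13), MTD (-0.13), MLT1B (-0.17) and MLT1F2-int (-0.036), and centring on the median of all families reversed ORR1A0 (-0.20), MTA_Mm (-0.14), MTD (-0.15) and MLT1B (-0.18), and in the KO MLT1B (-0.023). These alternatives remove the shared shift of the repeats. Leaving out single libraries gave -0.17 to 0.53 for ORR1A0 in the WT, -0.044 to 0.38 for MTD in the KO and -0.065 to 0.19 for MLT1B in the KO.

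The number of members past 2-fold moved with the settings. The share of all repeat families past the limit was not counted at the other settings, so these changes are not a result about the members. At 24 h it was 2 without a filter, 6 at 1.5-fold and 1 after centring, against 0. At 7 d it was 8 without a filter, 13 at 1.5-fold, and 1 with a pseudocount of 5, with a mean of at least 50 or after centring, against 2. For DMSO at 7 d against 24 h it was 2 without a filter and 2 at 1.5-fold, against 0. At 15 d it was 8 without a filter, 2 with a mean of at least 50, 20 at 1.5-fold and 3 after centring, against 5. For Recovery against DMSO it was 2 without a filter and 6 at 1.5-fold, against 0, and for Recovery against dTAG 9 and 10, and 1 with a pseudocount of 5 or a mean of at least 50, against 2. For 2CLC against mESC, centring gave 11 with DMSO (7 higher and 4 lower), against 68 higher and 0 lower, and 19 with dTAG (14 higher and 5 lower), against 69 higher and 0 lower. For dTAG in mESC it was 6 without a filter, 9 at 1.5-fold and 1 after centring, against 3, and for dTAG in 2CLC 21 at 1.5-fold and 2 after centring, against 10. The causes of these changes were not tested.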
